A study of Mus musculus with 48 samples.

Results

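The change of the conditional Bach2 knockout effect with natural killer (NK) cell stage was examined in 18 RNA-seq libraries of 48 in the series, namely all libraries titled cKO or cWT in the sorted fractions iNK, mNK1 and mNK2. All 18 came from sorted spleen cells of mice. The cKO animals carried loxP-flanked (flox/flox) alleles of Bach2 together with Ncr1Cre, a Cre recombinase driven by the NK cell gene Ncr1, and the cWT animals carried Ncr1Cre alone. A Cre allele was thus present in both genotypes, and the number of Ncr1Cre copies is not given. Each of the 6 groups held 3 libraries, and neither age nor treatment is given for them. By the usual naming iNK are immature and mNK mature NK cells, with mNK2 the most mature, but the surface gates of the fractions are not stated in the sources used here. For context, 4 KO and 4 WT libraries of NK cells from mixed bone marrow chimeras and 16 libraries of WT subsets (iNK, mNK1, KLRG1- mNK2 and KLRG1+ mNK2) are cited. A further 6 libraries of the conditional experiment, labelled NK, entered the fit only to estimate the spread.

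BACH2 is a transcriptional repressor of the bZIP family that pairs with small MAF proteins and is known in lymphocytes for holding back effector and terminal differentiation programs. NK cells that mature in the spleen lose early genes, among them the TCF-1 gene Tcf7 and the receptor gene Cd27, and gain granule proteases, the integrin gene Itgam and the receptor gene Klrg1. The quantity followed here is the log2 difference between cKO and cWT at a stage, and its shift, which is the difference at the later stage minus the difference at the earlier stage. A shift below 0 means that cKO stood lower relative to cWT at the later stage.

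BACH proteins with small MAF partners bind elements that hold the AP-1 core TGAGTCA, so this core was sought on both strands (as TGAGTCA or TGACTCA) in RefSeq promoter windows of GRCm38.p6. These windows run from 250 bases before to 50 bases after a transcript start. It lay in 5.20% of 32851 windows of 300 bases. Of the 5 genes with a stage-dependent genotype difference, 4 had an entry (Tcf7, Gpr183, Lilr4b and Tnfsf8, with 5 windows in all), and Cd69 is named only. The core lay in 0 of the 5 windows. Shown are a window of Tcf7 (chr11:52282965-52283264, minus strand) and that of Gpr183 (chr14:121965144-121965443, minus strand), the 2 genes with the smallest p in the test over the stages. Beside them stands that of the granzyme B gene Gzmb (chr14:56262285-56262584, minus strand), whose single match is in capitals. Windows of Emb, Entpd1 and Kit were searched as well and held 0 matches, so that of Gzmb is shown only as an example of a match.
Tcf7: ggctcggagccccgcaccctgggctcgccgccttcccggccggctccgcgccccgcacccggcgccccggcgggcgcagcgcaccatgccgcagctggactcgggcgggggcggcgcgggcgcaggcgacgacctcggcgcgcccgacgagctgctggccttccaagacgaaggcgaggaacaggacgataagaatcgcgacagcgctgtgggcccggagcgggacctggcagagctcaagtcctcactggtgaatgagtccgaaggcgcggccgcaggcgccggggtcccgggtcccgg
Gpr183: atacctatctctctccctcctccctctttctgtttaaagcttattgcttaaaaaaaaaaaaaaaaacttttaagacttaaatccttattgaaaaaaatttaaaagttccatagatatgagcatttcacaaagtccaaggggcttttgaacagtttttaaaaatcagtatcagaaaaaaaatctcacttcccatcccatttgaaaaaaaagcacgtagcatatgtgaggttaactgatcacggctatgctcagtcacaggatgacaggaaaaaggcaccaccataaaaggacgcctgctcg
Gzmb: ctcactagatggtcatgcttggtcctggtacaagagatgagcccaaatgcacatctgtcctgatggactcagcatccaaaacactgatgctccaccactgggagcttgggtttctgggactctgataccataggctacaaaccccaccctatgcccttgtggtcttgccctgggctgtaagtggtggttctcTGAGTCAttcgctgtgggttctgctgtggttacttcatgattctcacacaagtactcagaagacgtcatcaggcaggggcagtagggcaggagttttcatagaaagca
A match of these letters is a description of the window and no evidence of binding.

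The 18 libraries held 13650636 to 19619465 counts, and 3 counts in a library corresponded to 0.153 to 0.220 CPM (counts scaled to library size), a floor that covers counting error only. The stages carried their known genes in both genotypes. Cd27 averaged 425 ± 31.1 CPM in cKO iNK and 433 ± 7.85 CPM in cWT iNK, against 70.1 ± 3.78 CPM in cKO mNK2 and 83.3 ± 3.67 CPM in cWT mNK2 (SD, n = 3). Itgam ran the other way, with 6.33 ± 1.37 CPM in cKO iNK and 7.09 ± 1.02 CPM in cWT iNK, against 487 ± 17.5 CPM in cKO mNK2 and 496 ± 28.5 CPM in cWT mNK2.

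Bach2 transcripts were not lower in the libraries labelled cKO. They stood at 17.8, 17.1 and 23.8 CPM in cKO iNK against 11.8, 12.9 and 15.9 CPM in cWT iNK. In mNK1 they were at 19.4, 25.97 and 30.1 CPM in cKO against 15.3, 10.2 and 14.98 CPM in cWT. In mNK2 they were at 15.1, 18.05 and 24.6 CPM in cKO against 13.4, 11.3 and 10.9 CPM in cWT. At every stage all cKO libraries lay above all cWT libraries, and the difference showed no detectable dependence on stage (shift from iNK to mNK2 0.17 ± 0.32, edgeR adjusted p of the test over the stages 1). The floxed exon is not given in the sources used here, and a count over the whole gene does not show the loss of an exon. Directions below are those of libraries labelled cKO against libraries labelled cWT.

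Ncr1, which encodes the NK receptor NKp46 and whose promoter drives the Cre, set the cWT libraries apart from each other. It stood at 485, 559 and 576 CPM in cKO iNK and at 78.6, 56.1 and 351 CPM in cWT iNK. In mNK1 Ncr1 stood at 1272, 1289 and 1382 CPM in cKO and at 159.9, 182 and 788 CPM in cWT. In mNK2 it stood at 2424, 2395 and 2059 CPM in cKO and at 342, 279 and 1129.8 CPM in cWT. The cWT library numbered 3 was the highest of its group at each stage, and every cKO library exceeded every cWT library of its stage. The log2 difference was 1.73, 1.8 and 1.97 in iNK, mNK1 and mNK2, with an interval of the shift from iNK to mNK2 of -1.95 to 2.42, which leaves its stage dependence undetermined. Whether cKO and cWT animals carried the same number of Ncr1Cre copies is not given in the sources used here, so the comparison may not hold Cre dose constant, and its part in the results was not tested. The tests below were repeated with the cWT libraries numbered 3, or those numbered 1 and 2, left out, alternatives chosen after seeing the data.

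Few genes changed in their difference between cKO and cWT from stage to stage. In the edgeR test with 2 degrees of freedom for any change of the difference over the 3 stages, 5 of 12258 genes (0.0408%) passed at an adjusted p under 0.05, and 478 (3.9%) had an unadjusted p under 0.05. They were Tcf7, Gpr183, Lilr4b, Cd69 and Tnfsf8. From iNK to mNK2 the difference fell for 6 genes (0.0489%) and rose for 0, with 477 genes at an unadjusted p under 0.05. The 6 were Tcf7, Gpr183, Lilr4b, Cd69, Emb and E330020D12Rik. From mNK1 to mNK2 it fell for Gpr183 alone (0.00816%, with 440 genes at an unadjusted p under 0.05). From iNK to mNK1 it passed for 0 genes by edgeR (519 genes at an unadjusted p under 0.05). DESeq2 passed 4 genes there, Socs2, Tnfsf8, Entpd1 and Kcnj8, and limma voom passed 2, Tnfsf8 and Socs2. The counts rested on few libraries: without cKO mNK1 replicate 3 they were 17 over the stages, 13 from iNK to mNK2 and 17 from mNK1 to mNK2. Without cKO mNK2 replicate 1 or cWT mNK2 replicate 1 they were 2 over the stages and 2 from iNK to mNK2. With the cWT libraries numbered 3 left out, 0 genes passed the test over the stages and Tcf7 alone passed from iNK to mNK2 (-1.07, adjusted p = 0.0368). In that fit the shift was -1.57 for Gpr183, -1.31 for Lilr4b, -0.83 for Cd69 and -0.72 for Emb, with adjusted p of 0.108, 0.108, 0.166 and 0.625 in the same order. With those numbered 1 and 2 left out, 0 genes passed in any of these tests, from fits with 1 cWT library a stage that is assumed to vary like the other groups. Transcripts of basophil markers moved with genotype and stage as well, and their values and a fit that takes them into account stand beside the genes and in full further on.

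**Figure D1:**
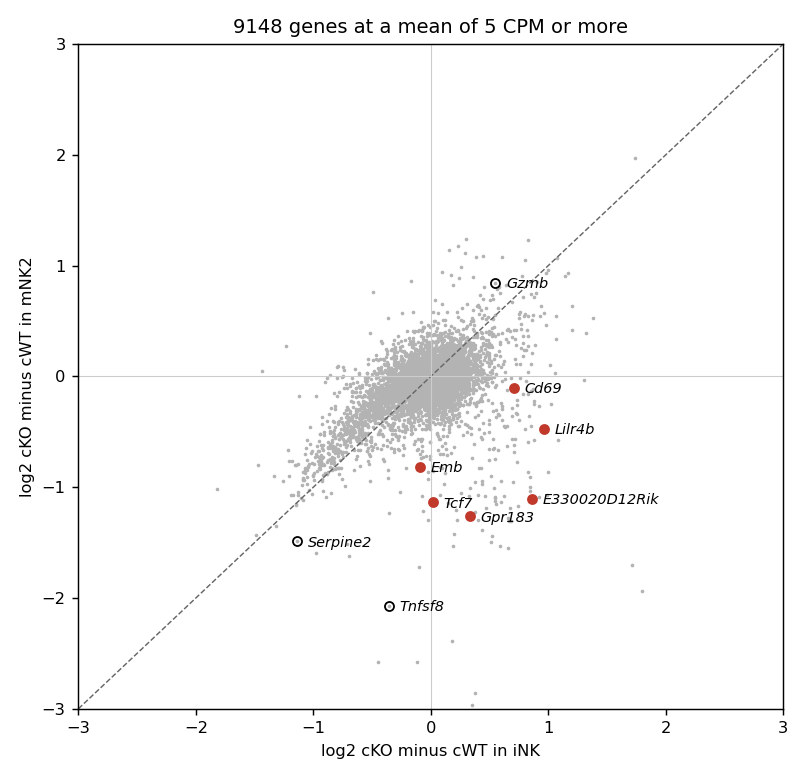
Log2 difference cKO minus cWT in iNK (x axis) against that in mNK2 (y axis) for 9148 genes with a mean of 5 CPM or more. Grey points are genes, red points the 6 that passed the test of the shift from iNK to mNK2, open circles Tnfsf8, Gzmb and Serpine2, and the dashed line marks equal differences. The 6 red points lie below the line, from Cd69 at 0.71 in iNK and -0.11 in mNK2 to Gpr183 at 0.33 in iNK and -1.26 in mNK2, and 1 gene lies outside the axes.

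Tcf7, the gene of the transcription factor TCF-1 that marks early and memory-like lymphocytes, showed a larger difference between cKO and cWT in mNK2 than in iNK. In iNK it stood at 929, 729 and 772 CPM in cKO and 789.7, 812 and 797 CPM in cWT. In mNK1 it stood at 265, 263 and 279 CPM in cKO and 365, 362 and 408 CPM in cWT. In mNK2 it stood at 36.5, 49.8 and 50.5 CPM in cKO and 101, 92.3 and 107 CPM in cWT. The genotypes overlapped in iNK, and all cKO libraries were below all cWT libraries in mNK1 and mNK2. The difference was 0.02 ± 0.10 in iNK, -0.49 ± 0.10 in mNK1 and -1.13 ± 0.10 in mNK2 (log2 ± SE). It fell by 1.15 ± 0.14 on the log2 scale from iNK to mNK2 (95% interval -1.45 to -0.86, adjusted p = 0.00046). Neither step alone passed, at -0.51 ± 0.14 from iNK to mNK1 (adjusted p = 0.91) and -0.64 ± 0.14 from mNK1 to mNK2 (adjusted p = 0.346). The shift from iNK to mNK2 passed under 29 of 30 other settings (18 with a library left out and 12 others), at -1.23 to -1.02, and missed with the cWT libraries numbered 1 and 2 left out (-1.21, adjusted p = 0.432). In the chimeras, whose NK cells were not split by stage, Tcf7 fell to 27.7 ± 3.09 CPM in KO libraries, against 79.4 ± 10.9 CPM in WT libraries (SD, n = 4; log2 difference -1.52 ± 0.11, adjusted p = 1.18e-08), in a comparison that called 280 of 10614 genes higher (2.64%) and 251 lower (2.36%), 531 in all (5%). The KO chimera libraries also held more summed neutrophil marker transcripts (153 to 655 CPM in KO, 6.71 to 65.8 CPM in WT). The same held for myeloid and dendritic cell markers (86.9 to 253 CPM in KO, 27.6 to 51.2 CPM in WT). They held fewer B cell marker transcripts (22.8 to 58.4 CPM in KO, 104 to 289.8 CPM in WT) and T cell marker transcripts (92.1 to 107 CPM in KO, 168 to 246 CPM in WT). The part of these markers' cells in the chimera values of Tcf7 and the genes below was not tested.

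**Figure D2:**
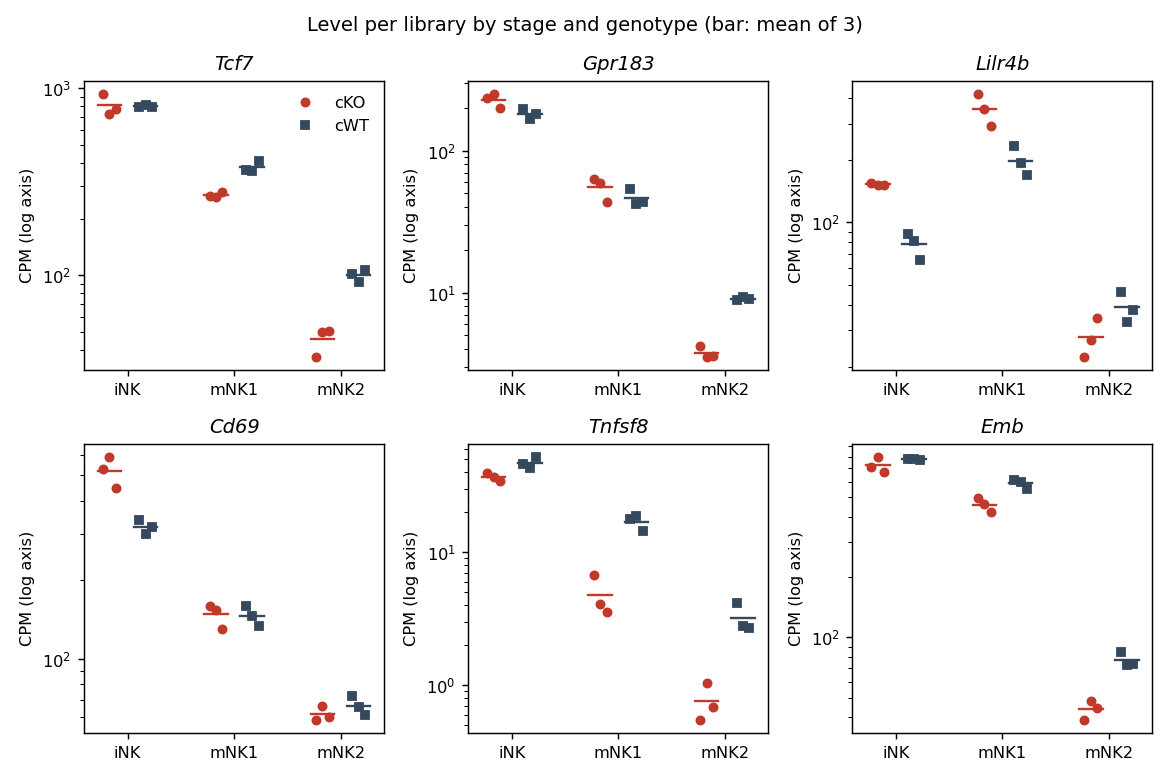
CPM per library (log axis) of Tcf7, Gpr183, Lilr4b, Cd69, Tnfsf8 and Emb by stage, with cKO as red circles left of cWT as dark squares and a bar at the mean of 3. Tcf7 overlaps in iNK and separates in mNK2, with cKO libraries at 36.5 to 50.5 CPM and cWT libraries at 92.3 to 107 CPM, while Cd69 separates in iNK and overlaps in mNK1 and mNK2.

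Gpr183, which encodes the oxysterol receptor EBI2 that guides lymphocyte positioning in the spleen, was higher in cKO than in cWT iNK and lower in cKO than in cWT mNK2. In iNK it stood at 236, 249 and 198 CPM in cKO and 195, 166 and 182 CPM in cWT. In mNK1 the values were 63.4, 58.7 and 43.3 CPM in cKO and 53.6, 41.7 and 43.1 CPM in cWT. In mNK2 they were 4.23, 3.51 and 3.60 CPM in cKO and 8.88, 9.26 and 9.07 CPM in cWT. All cKO libraries were above cWT in iNK, the groups overlapped in mNK1, and all cKO libraries were below cWT in mNK2. The log2 difference of 0.33 ± 0.14 in iNK and 0.26 ± 0.14 in mNK1 gave way to -1.26 ± 0.18 in mNK2. This was a shift of -1.52 ± 0.22 from mNK1 (adjusted p = 0.00804) and of -1.59 ± 0.22 from iNK (adjusted p = 0.00158). The shift from mNK1 missed the threshold without cKO mNK2 replicate 2 (-1.47, adjusted p = 0.0646) and under limma voom (-1.62, adjusted p = 0.0548). With the summed level of basophil markers as a covariate the shift from iNK was -1.15 and did not pass (adjusted p = 0.38). In the chimeras Gpr183 stood at 8.90 ± 2.58 CPM in KO and 7.39 ± 2.93 CPM in WT libraries, a difference of 0.26 ± 0.28 that did not pass (adjusted p = 0.756).

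Cd69, which encodes an early activation antigen that opposes tissue exit through the receptor S1PR1, showed a genotype difference in iNK that was not detectable in mNK1 or mNK2. It stood at 528, 588 and 446 CPM in cKO iNK and 339, 300.0 and 319 CPM in cWT iNK, without overlap. In mNK1 it was at 159.5, 154 and 129.8 CPM in cKO and 159, 145 and 134 CPM in cWT. In mNK2 it was at 58.6, 66.4 and 59.8 CPM in cKO and 71.98, 65.5 and 61.4 CPM in cWT, with overlap at both stages. The log2 difference was 0.71 ± 0.10, 0.02 ± 0.10 and -0.11 ± 0.10 in iNK, mNK1 and mNK2. It fell by 0.81 ± 0.14 on the log2 scale from iNK to mNK2 (95% interval -1.10 to -0.53, adjusted p = 0.0173), of which -0.69 ± 0.14 lay between iNK and mNK1 (adjusted p = 0.176). The shift from iNK to mNK2 missed the threshold under 11 of 30 other settings, 7 of them with a single library left out. Among these 7 the lowest adjusted p was 0.0679 (without cKO iNK replicate 2, at -0.65) and the highest 0.125 (without cWT iNK replicate 2, at -0.72). With the basophil covariate it was -0.48 (adjusted p = 0.797). B cell markers, which were also higher in cKO than in cWT iNK, left it at -0.72 when taken as a covariate (adjusted p = 0.0405). In the chimeras Cd69 fell to 26.7 ± 2.57 CPM in KO against 46.6 ± 3.72 CPM in WT libraries (-0.80 ± 0.12, adjusted p = 9.15e-05).

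Lilr4b, a member of the LILRB4 group of immunoglobulin-like receptors, was higher in cKO than in cWT in iNK and mNK1, and not in mNK2. Its iNK values were 155, 151 and 152 CPM in cKO and 87.8, 81.7 and 65.5 CPM in cWT. In mNK1 it reached 418, 354 and 293 CPM in cKO and 234, 193 and 169 CPM in cWT. The mNK2 libraries held 22.3, 27.1 and 34.6 CPM in cKO and 45.9, 32.8 and 37.7 CPM in cWT. The genotypes did not overlap in iNK or mNK1 and overlapped in mNK2. The difference was 0.96 ± 0.16, 0.84 ± 0.16 and -0.47 ± 0.17 in stage order, and its shift from iNK to mNK2 was -1.44 ± 0.23 (adjusted p = 0.0153). That from mNK1 to mNK2 was -1.31 ± 0.23 (adjusted p = 0.075). The near-identical paralog Lilrb4a, with which reads may be shared, had differences of 0.87 ± 0.16, 0.96 ± 0.16 and -0.12 ± 0.16 and a shift from mNK1 to mNK2 of -1.07 ± 0.23 that did not pass (adjusted p = 0.337). Without cWT mNK2 replicate 1 or without cKO mNK2 replicate 1 the Lilr4b shift from iNK missed the threshold (adjusted p = 0.0637 and 0.0501). With the basophil covariate it was -0.92 (adjusted p = 0.594). In the chimeras Lilr4b rose to 36.7 ± 8.56 CPM in KO, against 10.5 ± 1.24 CPM in WT libraries (1.8 ± 0.17, adjusted p = 3.22e-07).

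Tnfsf8, which encodes the ligand of the receptor CD30, was lower in cKO at every stage, and more so in the mature fractions. It stood at 39.2, 36.6 and 34.1 CPM in cKO iNK and 45.8, 43.2 and 52.01 CPM in cWT iNK. In mNK1 it was at 6.72, 4.07 and 3.52 CPM in cKO and 17.7, 18.7 and 14.3 CPM in cWT. In mNK2 it was at 0.549, 1.04 and 0.690 CPM in cKO and 4.18, 2.79 and 2.68 CPM in cWT. The genotypes did not overlap at any stage. The difference of -0.36 ± 0.19 in iNK stood against -1.83 ± 0.21 in mNK1 and -2.07 ± 0.30 in mNK2. Its dependence on stage passed in the test over all stages (adjusted p = 0.0376), whereas no single shift did. The shift from iNK to mNK1 was -1.47 ± 0.28 (adjusted p = 0.152) and that from iNK to mNK2 -1.71 ± 0.36 (adjusted p = 0.114). The call held under 12 of 30 other settings and was lost without any of 12 single libraries, of which cWT iNK replicate 2 gave the highest adjusted p (0.219). Chimera libraries held 1.29 ± 0.529 CPM in KO and 6.94 ± 1.12 CPM in WT, a fall of the same direction (-2.44 ± 0.34, adjusted p = 5.21e-05).

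Emb, which encodes embigin, a membrane glycoprotein of the basigin family, also differed more between the genotypes in mNK2 than in iNK. Its values were 711, 797 and 669.7 CPM in cKO iNK and 778, 777 and 765 CPM in cWT iNK, with overlap. In mNK1 they were 495, 465 and 421 CPM in cKO and 614, 596 and 551 CPM in cWT. In mNK2 they were 38.8, 48.1 and 44.6 CPM in cKO and 84.3, 73.2 and 73.999 CPM in cWT, again without overlap. The difference was -0.09 ± 0.09, -0.35 ± 0.09 and -0.82 ± 0.10 in stage order. It fell by 0.72 ± 0.14 on the log2 scale from iNK to mNK2 (adjusted p = 0.0395). This call held under 7 of 30 other settings, with values of -0.80 to -0.59 throughout. The Riken transcript E330020D12Rik, which was outside the naming rule and is named because it was the sixth gene called, had a difference of 0.86 ± 0.22, 0.49 ± 0.21 and -1.11 ± 0.28. In mNK2 it lay at 1.41 to 1.53 CPM in cKO and 2.79 to 3.42 CPM in cWT (shift from iNK to mNK2 -1.97 ± 0.36, adjusted p = 0.0307). In bulk samples, fewer cells of a kind within a fraction and less RNA per cell cannot be told apart, which applies to all of these genes.

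**Figure D3:**
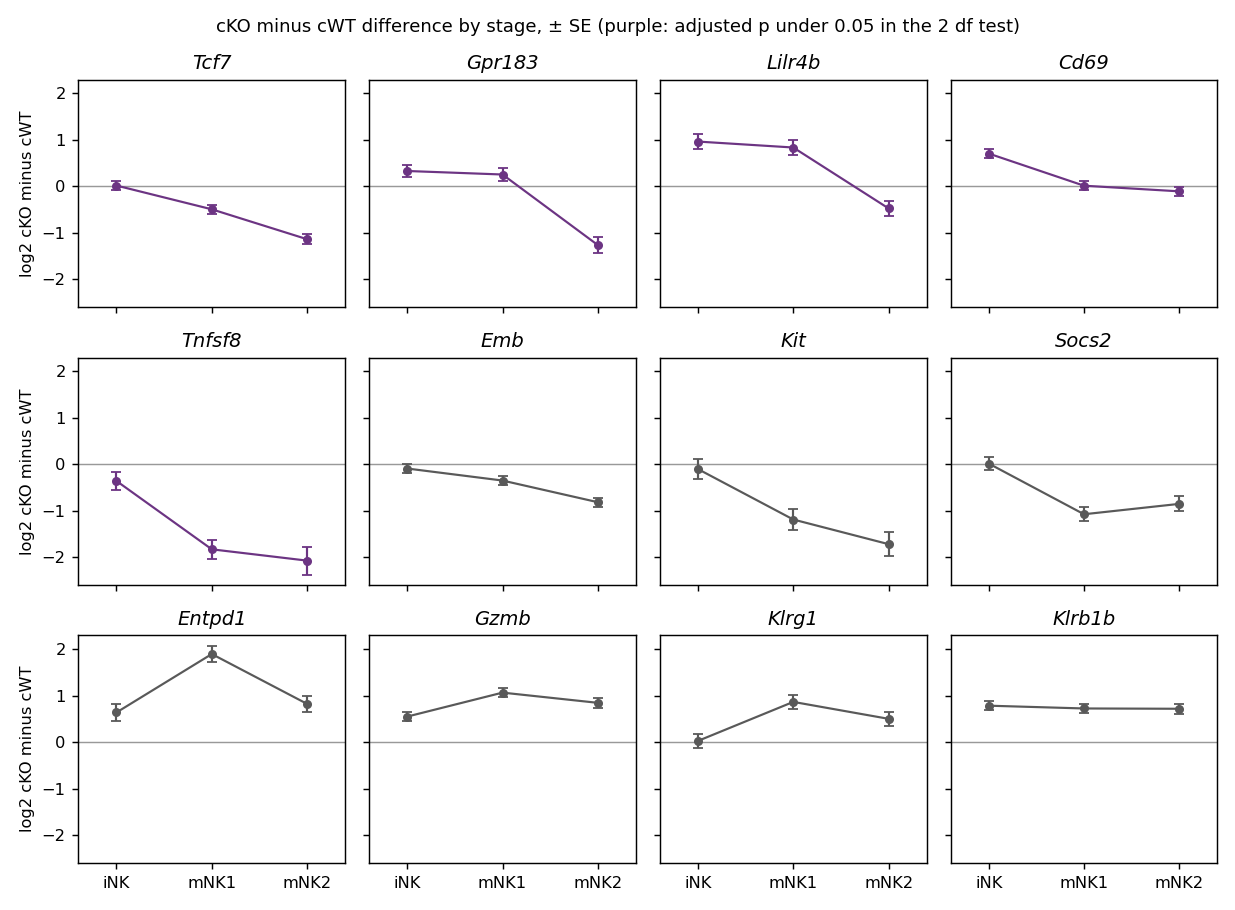
Log2 difference cKO minus cWT (y axis, ± SE of the fit) at iNK, mNK1 and mNK2 for 12 genes, in purple where the test over the stages passed. Tcf7, Tnfsf8, Emb and Kit stand lower in mNK2 than in iNK, Gpr183 and Lilr4b are above 0 in iNK and mNK1 and below 0 in mNK2, and Klrb1b is level at 0.72 to 0.78.

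The levels of these genes along the WT subsets, which were scaled apart from the conditional libraries, gave the direction of maturation. From iNK over mNK1 and KLRG1- mNK2 to KLRG1+ mNK2, Tcf7 averaged 330.1 ± 25.96, 129.9 ± 18.1, 26.3 ± 3.48 and 10.1 ± 1.72 CPM (SD, n = 4). Emb stood at 526 ± 29.9, 269 ± 9.13, 28.6 ± 9.30 and 6.04 ± 2.98 CPM and Cd69 at 81.8 ± 10.1, 46.4 ± 4.22, 27.6 ± 3.24 and 20.9 ± 6.33 CPM in the same order. Tnfsf8 had 30.96 ± 7.42, 6.61 ± 1.79, 1.33 ± 1.25 and 0.334 ± 0.295 CPM. All of these means declined with stage, although the ranges of Cd69 and Tnfsf8 in the KLRG1- and KLRG1+ libraries overlapped. Gpr183 was at 46.9 ± 9.67 CPM in WT iNK and at 4.39 ± 2.49, 1.92 ± 0.730 and 1.37 ± 1.24 CPM in the later subsets. Lilr4b was low there, with 7.19 to 13.9 CPM in WT iNK, 4.55 to 9.97 CPM in WT mNK1 and at most 1.40 CPM in both mNK2 subsets.

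Genes next in order of p did not pass the test over the stages, and a selection is given as values, chosen after they were seen. Gpr34, Csf1, Il6 and the basophil marker Ms4a2 were also next in order. Their shifts from mNK1 to mNK2 were -1.67, -2.02, -1.71 and -1.74 (edgeR adjusted p = 0.177, 0.348, 0.348 and 0.439), and DESeq2 called each of them in that step. Kit, which encodes the stem cell factor receptor, stood at 22.5, 15.4 and 23.8 CPM in cKO and 20.997, 25.4 and 20.1 CPM in cWT iNK. In mNK1 Kit stood at 7.85, 6.99 and 5.55 CPM in cKO and 11.7, 14.3 and 20.4 CPM in cWT. Its mNK2 levels were 1.41, 3.11 and 2.38 CPM in cKO and 7.14, 6.61 and 8.999 CPM in cWT. Its genotypes overlapped in iNK only, and the shift from iNK to mNK2 was -1.61 ± 0.33 (95% interval -2.29 to -0.94, adjusted p = 0.0956). Socs2, a suppressor of cytokine signalling, had a difference of 0.02 ± 0.14 in iNK, -1.07 ± 0.15 in mNK1 and -0.85 ± 0.16 in mNK2, with a shift from iNK to mNK1 of -1.09 ± 0.20 (adjusted p = 0.152). Its cKO mNK1 libraries held 11.2, 12.3 and 13.7 CPM, against 29.02, 23.5 and 25.8 CPM in cWT mNK1.

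Entpd1, the gene of the ectonucleotidase CD39, and the potassium channel gene Kcnj8 had their largest difference in mNK1. Entpd1 stood at 9.23, 8.62 and 8.44 CPM in cKO and 7.40, 5.52 and 4.11 CPM in cWT iNK. In mNK1 Entpd1 stood at 45.8, 53.1 and 36.7 CPM in cKO and 14.3, 13.2 and 8.99 CPM in cWT. In mNK2 it stood at 145, 168 and 159 CPM in cKO and 82.2, 94.1 and 90.7 CPM in cWT, without overlap at any stage. The difference was 0.64 ± 0.19, 1.89 ± 0.18 and 0.82 ± 0.17 (adjusted p of the test over the stages 0.114). For Kcnj8 it was 0.24 ± 0.17, 1.43 ± 0.18 and 0.89 ± 0.17 (adjusted p = 0.287). Crtam, an adhesion receptor of activated lymphocytes, had differences of -0.21 ± 0.10, -0.69 ± 0.10 and -0.82 ± 0.11 (adjusted p = 0.441). In the Klra family of Ly49 receptors, whose members may share reads, the pseudogene Klra14-ps had differences of -0.47 ± 0.09, 0.11 ± 0.09 and 0.16 ± 0.09 (adjusted p = 0.112) and Klra10 -0.49 ± 0.23, 0.67 ± 0.21 and 0.76 ± 0.20 (adjusted p = 0.446).

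Among the core NK genes none passed the edgeR test over the stages without a replicate block. With the block within genotype, a fit on numbers that the labels do not say are pairs, Klrg1 (adjusted p = 0.00109) and Gzmb (adjusted p = 0.0344) passed. Gzmb, the gene of granzyme B, stood at 303, 305 and 288 CPM in cKO and 188, 209 and 216 CPM in cWT iNK. In mNK1 Gzmb stood at 2442, 2465 and 2215 CPM in cKO and 1077, 1183 and 1148 CPM in cWT. The mNK2 levels were 9088, 8079 and 6496 CPM in cKO and 4211, 4581 and 4391 CPM in cWT. The genotypes were apart at all stages, with differences of 0.55 ± 0.10, 1.06 ± 0.10 and 0.84 ± 0.10 and a shift from iNK to mNK1 of 0.52 ± 0.14 (95% interval 0.22 to 0.81, adjusted p = 0.91). Klrg1, an inhibitory receptor of terminal NK cells, overlapped in iNK, at 44.8, 38.04 and 37.6 CPM in cKO and 43.97, 46.2 and 28.3 CPM in cWT. It was apart in mNK1, at 344, 337 and 325 CPM in cKO and 177, 222 and 154 CPM in cWT, and in mNK2 (differences 0.03 ± 0.16, 0.86 ± 0.15 and 0.50 ± 0.15, adjusted p of the test over the stages 0.723). For the factor genes Eomes, Tbx21, Zeb2 and Prdm1 the shift from iNK to mNK2 was 0.14 ± 0.11, -0.12 ± 0.19, 0.18 ± 0.16 and -0.17 ± 0.16 in that order. For Ifng, the interferon gamma gene, it was 0.15 ± 0.23. The shift was -0.22 ± 0.12 for Cd27, 0.22 ± 0.21 for the perforin gene Prf1 and 0.75 ± 0.41 for Gzma, whose interval of -0.12 to 1.62 is wide.

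For some genes the genotype difference was close to level over the stages, which a test that did not pass does not establish. Klrb1b, an NKR-P1 receptor gene, stood at 131, 153 and 169 CPM in cKO and 79.4, 89.7 and 94.7 CPM in cWT iNK. In mNK2 it stood at 417, 517 and 477 CPM in cKO and 278, 267 and 314 CPM in cWT. Its difference was 0.78 ± 0.10, 0.72 ± 0.10 and 0.72 ± 0.10, and the interval of the shift from iNK to mNK2 was -0.36 to 0.23. Serpine2, a serine protease inhibitor gene, was lower in cKO at all stages, with differences of -1.14 ± 0.16, -1.35 ± 0.16 and -1.49 ± 0.17 and an interval of the shift of -0.83 to 0.13. Its cKO libraries held 23.7 to 26.8 CPM in iNK, 28.8 to 47.9 CPM in mNK1 and 15.9 to 18.9 CPM in mNK2, against 45.4 to 67.2, 83.1 to 108 and 47.3 to 49.4 CPM in the cWT libraries of these stages.

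The gene lists placed these genes among their relatives. The lists were chosen with earlier results of these data known. A larger share of calls in a list than over all genes may thus be built in. Of 20 early NK and stem-like genes, 3 had a difference that fell from iNK to mNK2 (Tcf7, Gpr183 and Emb) and 0 one that rose, against 6 of 12258 genes over all (0.0489%). The shift was below 0 for 14 of the 20 and for 6759 of all 12258 genes, and the median shift was -0.28, against -0.03 over all genes tested. The median difference of the list was -0.03 in iNK, -0.23 in mNK1 and -0.51 in mNK2. Its members ran both ways, from Kit with a shift of -1.61 and the interleukin 7 receptor gene Il7r with -0.84 to the inhibitor gene Id3 with 0.56 and the chemokine receptor gene Ccr7 with 0.83, neither of the last 2 above 5 CPM in mNK2. Of 16 late maturation genes 0 passed in either direction. All 16 had a shift above 0 from iNK to mNK1 (median 0.38), against 5801 of all 12258 genes (median -0.01). Of the 16, 14 had one below 0 from mNK1 to mNK2 (median -0.23), against 6467 of all 12258 genes (median -0.01). The mast cell protease gene Cma1, with 0.82 ± 0.23 from iNK to mNK1 (adjusted p = 0.91), and Klrg1, with 0.84 ± 0.22 (adjusted p = 0.91), were among the larger shifts of that list.

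**Figure D4:**
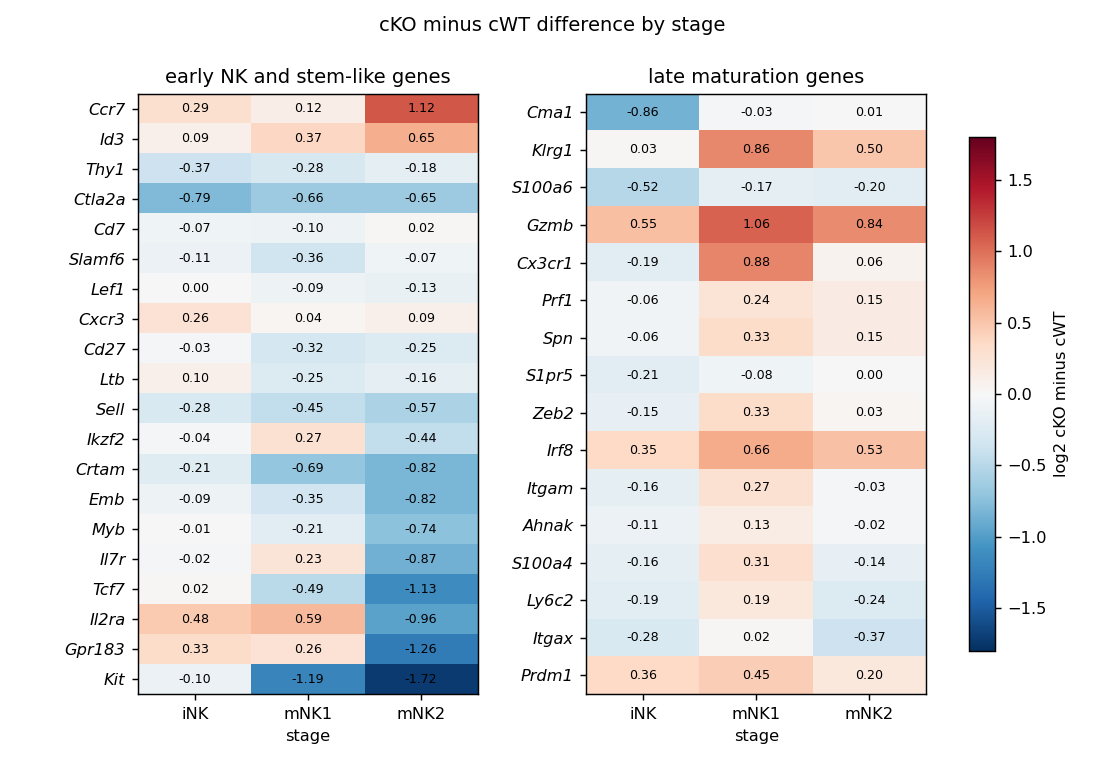
Log2 difference cKO minus cWT (colour and printed value) at iNK, mNK1 and mNK2 for the 20 early NK and stem-like genes (left) and the 16 late maturation genes (right), ordered by the shift from iNK to mNK2. Tcf7, Gpr183 and Kit stand at -1.13, -1.26 and -1.72 in mNK2, and the late maturation genes stand higher in mNK1 than in iNK.

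Of 29 NK cell receptor genes tested, 0 passed. From iNK to mNK2, 24 of them had a shift above 0 (median 0.24), against 5499 of all 12258 genes (median -0.03). Among 18 checkpoint and costimulatory genes Lilr4b was the only call from iNK to mNK2, against 6 of 12258 genes over all (0.0489%). The median shift of that list was -0.35. Gpr183 and Cd69 were the calls among 27 trafficking and retention genes, Cd69 that among 15 ILC1-associated genes, Tcf7 that among 30 NK transcription factors, each lower. The lists share members, and Tcf7 and Gpr183 also stand among the early NK genes, so the same calls are counted again. Tnfsf8 was the only call in the test over the stages among 23 TNF family genes, against 5 of 12258 genes over all (0.0408%). No member passed among 26 cytotoxic granule genes, 24 AP-1 and bZIP factors, 25 immediate early and stress genes, 27 cytokine receptor and signalling genes, 19 heme and oxidative stress genes, 35 cell cycle genes, 31 interferon response genes and 19 glycolysis genes, whose median shifts from iNK to mNK2 ran from -0.23 to 0.15. None of 37 ribosomal protein genes passed either. From iNK to mNK2, 36 of them had a shift above 0, against 5499 of all 12258 genes. The median difference of the ribosomal protein genes was -0.70 in iNK, -0.57 in mNK1 and -0.51 in mNK2, over libraries that varied widely within a group. Rpl13, for example, stood at 1209, 2122 and 1035 CPM in cKO iNK and 3325, 1537 and 2263 CPM in cWT iNK. In mNK2 it stood at 773, 649.8 and 596 CPM in cKO and 1607, 812 and 567 CPM in cWT, with overlap at both stages.

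Markers of other cell types moved with genotype and stage as well. Basophil genes (Mcpt8, Prss34, Fcer1a, Ms4a2, Cd200r3, Cpa3, Gata2, Hdc and Il4), a list of 9 chosen after seeing the data, summed to 493, 330.0 and 241 CPM in cKO iNK and 257, 226 and 208 CPM in cWT iNK. The sums were 1813, 1123 and 777 CPM in cKO mNK1 and 1023, 788 and 699 CPM in cWT mNK1. In mNK2 they were 103, 82.9 and 96.2 CPM in cKO mNK2 and 238, 195 and 148 CPM in cWT mNK2. In mNK2 all cKO libraries were below all cWT libraries, and in the earlier stages the sums overlapped. All 9 genes had a shift below 0 from iNK to mNK2 (median -1.62), against 6759 of all 12258 genes (median -0.03). Over the stages 8 of the 9 had an unadjusted p under 0.05, against 478 of all 12258 genes, and 0 passed after adjustment by edgeR. DESeq2 called 3 of the 9 over the stages, Cd200r3 (adjusted p = 0.00304), Ms4a2 (adjusted p = 0.00363) and Gata2 (adjusted p = 0.0395), and fits with a replicate block called 2 or 5, with an adjusted p of 7.42e-06 for Cd200r3 in the block within genotype. None of the 9 was at 0 in any of the 18 libraries, and the WT subset libraries reached at most 20.4 CPM. The KO chimera libraries summed to 67.9 to 323 CPM, against 13.2 to 31.3 CPM in the WT chimera libraries.

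With the summed basophil level of each library as a covariate, a fit added after seeing the data, 0 genes passed the test over the stages. The shift of Tcf7 from iNK to mNK2 still passed (-1.19, adjusted p = 0.0425), and those of Gpr183, Lilr4b and Cd69 did not. For E330020D12Rik it was -1.12 (adjusted p = 0.76) and for Emb -0.66 (adjusted p = 0.67). Socs2, Tnfsf8 and Cd69 passed from iNK to mNK1 in that fit, Tnfsf8 at -1.47 (adjusted p = 0.044). Which cells the transcripts of Tcf7, Gpr183, Lilr4b, Cd69, Tnfsf8 and Emb came from was not tested. Summed T cell markers, at 1746.5 to 2525 CPM in iNK and 90.5 to 138 CPM in mNK2 libraries, were taken as a covariate in no fit.

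**Figure D5:**
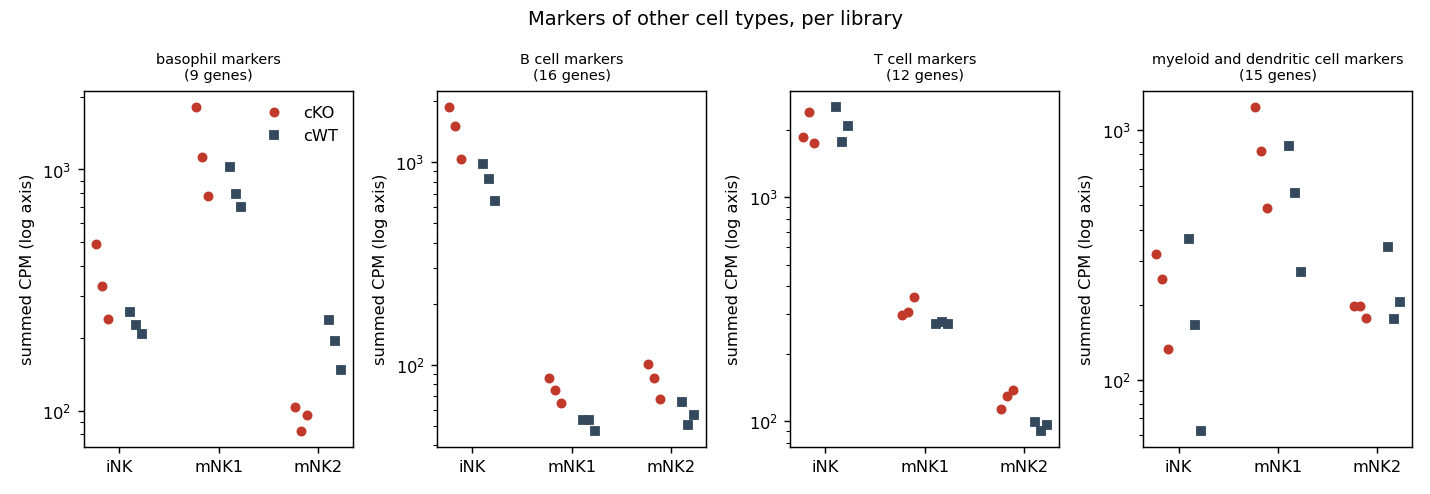
Summed CPM per library (log axis) of basophil, B cell, T cell, and myeloid and dendritic cell markers by stage, with cKO as red circles left of cWT as dark squares. Basophil sums of the cKO libraries in mNK2 lie at 82.9 to 103 CPM and those of the cWT libraries at 148 to 238 CPM, while B cell and T cell sums are highest in iNK.

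Among the other marker lists, 16 B cell genes summed to 1041 to 1871 CPM in cKO iNK and 640.2 to 981 CPM in cWT iNK, without overlap, and to at most 101 CPM in any library of the later stages. Their median difference was 0.85 in iNK, 0.73 in mNK1 and 0.56 in mNK2. The 12 T cell genes summed to 1746 to 2389.9 CPM in cKO iNK and 1754 to 2525 CPM in cWT iNK. They summed to 298 to 357 CPM in cKO mNK1 and 271 to 277 CPM in cWT mNK1. In mNK2 the T cell sums were 113 to 138 CPM in cKO and 90.5 to 99.2 CPM in cWT. All cKO sums lay above all cWT sums at both mature stages, but the genes did not move together. The median difference of the 12 T cell genes was 0.43 in mNK1, with 11 above 0. In mNK2 it was -0.0024, with 6 above 0. Cd28 held 1306, 1433 and 1510 counts in cKO mNK2 and 975, 1137 and 1100 in cWT mNK2. Cd3g held 25, 48 and 52 counts in cKO mNK2 and 112, 42 and 64 in cWT mNK2. Myeloid and dendritic cell genes summed to 487 to 1238 CPM in cKO mNK1 and 269.9 to 862 CPM in cWT mNK1, with overlap. Neutrophil genes, of which up to 9 were at 0 in a cWT iNK library, summed to 33.7 to 53.2 CPM in cKO iNK and 20.1 to 27.2 CPM in cWT iNK. Cxcr2 of that list alone held 757, 399 and 395 counts in cKO iNK and 301, 289 and 300 in cWT iNK. The neutrophil sums overlapped in mNK1, and were 23.4 to 31.3 CPM in cKO mNK2 and 48.2 to 209 CPM in cWT mNK2. All 9 tested had a shift below 0 from iNK to mNK2, against 6759 of all 12258 genes. The sums of erythroid and platelet genes were 30.7 to 41.99 CPM in cKO and 32.4 to 45.7 CPM in cWT mNK2. Those of other innate lymphoid cell genes were 220.2 to 248 CPM in cKO and 157 to 173 CPM in cWT iNK. No member of these lists passed the edgeR test over the stages without a replicate block. Cxcr2 of the neutrophil list passed it by DESeq2 (adjusted p = 0.00369) and by edgeR with the block within genotype (adjusted p = 0.000597). With the summed B cell level as a covariate, Tcf7, Gpr183, Lilr4b and Cd69 still passed from iNK to mNK2, and Emb did not (-0.69, adjusted p = 0.122).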

How the data were processed

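Messenger RNA was measured in 48 libraries; per the labels' protocols, cells were kept in RNAlater, RNA was extracted with a Qiagen RNeasy Plus Mini kit and libraries were made with a Clontech SMARTer kit. The deposited values are raw counts per gene symbol for 24328 symbols. Per the submitters' processing notes, reads were checked with FastQC and aligned with STAR 2.5.0 to mm9; the counting tool, annotation release and strand setting are not given in the sources used here.

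The 24 libraries of the conditional experiment were fitted together in R 4.3.3 with edgeR 4.0.16 (filterByExpr, TMM factors, robust quasi-likelihood F test, 8 groups, 16 residual degrees of freedom), which left 12258 genes; the NK fraction entered only the spread. The difference cKO minus cWT was compared over the 3 stages in a test with 2 degrees of freedom and between each pair of stages, with Benjamini-Hochberg adjustment over all genes and a threshold of 0.05. Standard errors are the log2 value divided by the root of F. Levels are CPM on TMM-scaled library sizes. Chimera libraries were fitted alone. Alternatives were RLE factors, no filter, a filter at 5 CPM, DESeq2 1.42.0, limma 3.58.1 voom, the 18 libraries alone, replicate blocks and each library left out; covariates of basophil or B cell markers and the 2 sets of cWT libraries left out were added after seeing the data. The code was tested on simulated data.

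Genes open to naming were Bach2, Tcf7, Gpr183, Cd69, Lilr4b, core NK genes, the called genes with the smallest p at 5 CPM or more (no predicted, Rik or small RNA genes), and members of each of the lists; others are said to be chosen after their values were seen. The comparison, members and lists were chosen with earlier results of these data known. The labels do not say that replicates are separate animals, so p-values measure the spread between these samples, which may be technical. Over the 18 libraries, same-numbered libraries of a genotype deviated with a correlation of -0.46 to 0.74 (median 0.09), over 0.1 in 9 of 18 pairs. Other-numbered libraries of a genotype had a median of -0.08, over 0.1 in 12 of 36 pairs. This leaves pairing by number undecided. The labels tie no number to an animal, so the main fit took no pairs and the replicate blocks stand as alternatives. Promoter windows are those of RefSeq on GRCm38.p6, a build other than that of the counts; symbols were matched by name, and the chromosome positions apply to that build only.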

Additional observations from a re-analysis of the deposited data

Results flagged for a closer look

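For 7 genes the difference between cKO and cWT libraries changed between stages by a test of that change itself (edgeR). For Tcf7 the adjusted p over the stages was 0.0022 and the shift from iNK to mNK2 -1.15 on the log2 scale. For Gpr183 it was also 0.0022, with shifts of -1.52 from mNK1 to mNK2 and -1.59 from iNK to mNK2. Lilr4b had an adjusted p of 0.0196 and a shift from iNK to mNK2 of -1.44, Cd69 an adjusted p of 0.0261 and a shift of -0.81, and Tnfsf8 an adjusted p of 0.0376 over the stages alone. Emb, at -0.72, and E330020D12Rik, at -1.97, passed from iNK to mNK2 only. With the basophil covariate, or with the cWT libraries numbered 3 left out, no gene passed over the stages. In both of these fits Tcf7 alone passed from iNK to mNK2. The Emb call held under 7 of 30 other settings and the Tnfsf8 call under 12 of 30.

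In 4 of 42 checks of a gene level or the basophil sum in a group of 4 libraries, a single library stood far above the others. Chance flags a library at either end in about 1 check in 20, and the checks share the same libraries. Tnfsf8 stood at 2.08 CPM in chimera KO replicate 3. Among the WT subsets, Gpr183 stood at 8.10 CPM in mNK1 replicate 4, Cd69 at 96.8 CPM in iNK replicate 2 and the summed basophil markers at 20.4 CPM in iNK replicate 3. Groups of 3, among them all cKO and cWT groups, were not examined in this way.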

How the results depend on the processing

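Of 1740 values for 58 named gene results under 30 other settings, 1556 kept their direction and their side of the threshold, 111 lost and 52 gained the call, and 21 turned round. The counts of genes moved more, and the cause was not tested. Over the stages (5 genes), DESeq2 called 37, limma voom 8 and the fit of the 18 libraries alone 2; from iNK to mNK1 (0 genes), DESeq2 called 4 and voom 2; from mNK1 to mNK2 (1 gene), 22 and 2; from iNK to mNK2 (6 genes), DESeq2 called 28 and the 18 libraries alone 2, Tcf7 and Gpr183. The basophil covariate gave 0, 3, 0 and 1 in these 4 tests, and the B cell covariate gave 1 from iNK to mNK1. Leaving out the cWT libraries numbered 3 gave 0 over the stages, 0 from mNK1 to mNK2 and 1 from iNK to mNK2, and leaving out those numbered 1 and 2 gave 0 in each. RLE factors and both filters kept the counts within 1.5 times.

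With each library left out, the counts were 2 to 17 over the stages, 0 to 17 from mNK1 to mNK2 and 2 to 13 from iNK to mNK2. Each of these was highest without cKO mNK1 replicate 3. From iNK to mNK1 the counts were 0 to 1. The count of 0 from mNK1 to mNK2 was without cKO mNK2 replicate 2, and 3 genes were called over the stages or from iNK to mNK2 without cKO iNK replicate 1 or 2, cKO mNK2 replicate 3, or cWT iNK replicate 1, 2 or 3. The chimera count of 531 was 383 to 672 with a library left out.

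Correlation did not settle whether the numbers pair the libraries. Of 18 libraries, 11 correlated best with their own number, a hint from the data and not the design. With the replicate block over both genotypes 25 genes were called over the stages, 16 from mNK1 to mNK2 and 29 from iNK to mNK2; with the replicate block within genotype 47, 31 and 51, and 4 from iNK to mNK1, among them Klrg1 (0.83, adjusted p = 0.00179). That fit called 5 of the 9 basophil markers over the stages.

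The shifts that turned round were not called. With the basophil covariate they were -0.48 for Ifng, -1.27 for Ncr1, 0.11 for Serpine2, 0.0233 for Fcer1a (mNK1 to mNK2), 0.50 for Cpa3 and 0.55 for Cd79a; with the B cell covariate -0.29 for Ncr1 and 0.0415 for Cd79a. Leaving out the cWT libraries numbered 3 gave -0.0844 for Ncr1, leaving out those numbered 1 and 2 gave 2.08 for Cd3e (mNK1 to mNK2), and voom gave 0.0417 for Klrb1b. With 1 library left out the shift of Ncr1 ran from -0.9996 to 1.15 (below 0 without cWT iNK replicate 3 or cWT mNK2 replicate 1 or 2) and that of Klrb1b from -0.14 to 0.0532 (above 0 without 5 of the 18 libraries). That of Cd3e from mNK1 to mNK2 ran from -1.32 to 0.58 (above 0 without cWT mNK2 replicate 1) and that of Lef1 from -0.23 to 0.0339 (above 0 without cKO mNK2 replicate 1). Depth limits the low genes, such as Tnfsf8, whose cKO mNK2 libraries held 29 counts in all.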
